A study of Homo sapiens with 6 samples.

Results

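Desmosomes are the spot junctions that tie the keratin filaments of one cell to those of its neighbour, and the 10 genes described here encode components of them. They are the desmosomal cadherins DSC2, DSC3, DSG2 and DSG3, the armadillo proteins JUP, PKP1, PKP2 and PKP3, and the plakins DSP and EVPL, taken as the rows of the deposited gene table that carry these names. All 10 were found among the 21494 genes of the table, and all 10 passed the filter on low counts that left 16756 genes for testing. RNA-seq compared 3 Control sh samples, cells expressing a control shRNA and labelled wild type, with 3 VprBP sh samples, cells expressing an shRNA against VprBP, the protein encoded by DCAF1 and a substrate receptor of cullin-RING ubiquitin ligases. Per the methods of the study, the knockdown used 1 shRNA sequence, delivered by lentivirus and followed by puromycin selection, so it rests on a single hairpin in a selected population. The labels name the line as G361, a human melanoma line, but enter LD611 as source, and they cite a SMARTER kit where the methods cite a strand-specific KAPA kit.

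Totals of estimated counts ran from 18195949 to 26883948 per sample. Values below are normalized counts, the rounded estimated counts scaled by upper quartile factors to the mean library, unless counts are named. Replicates 2 and 3 resembled each other more than replicate 1 in each group, with a chi-square per degree of freedom of 2.45 and 2.32 against 16.1 to 26.6. The labels do not say that replicates are separate cultures, so the p-values measure the spread between these samples, which may be technical. DCAF1 had 797, 971 and 838 in Control sh against 760.3, 507 and 481 in VprBP sh, a log2 fold change of -0.58 (SE, standard error, 0.17, adjusted p = 0.0125, edgeR quasi-likelihood test) that stayed below 2-fold. VprBP sh replicate 1 showed little reduction, and without it the log2 fold change of DCAF1 was -0.82 and no call of a desmosome gene changed. Mitochondrial genes took 1.96% to 1.98% of counts in Control sh but 4.10% to 4.48% in VprBP sh.

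The labelled cell type was checked against marker genes. Of 8 melanocyte markers, 4 were in the table analysed, with a summed level of 199 to 236 in Control sh against 244 to 308 in VprBP sh, mostly from MITF, and none was called. MLANA and TYRP1, which define the pigment lineage, had at most 5 counts in any sample, and TYR, DCT, SOX10 and S100B were not among the rows analysed. Most basal squamous markers were abundant in the control cells instead. All 6 were in the table, with a summed level of 206266 to 222755 in Control sh against 4341 to 6442 in VprBP sh. Of the 6, 5 were lower in VprBP sh. The other, SOX2, had 13, 9 and 15 counts in Control sh against 2, 0 and 0 in VprBP sh and was not tested. Of 8 urothelial markers, 6 were in the table, with a summed level of 1494 to 1586 in Control sh against 2810 to 3345 in VprBP sh, 2 of them higher and 2 lower. That sum hides large opposite changes. GATA3 had 7, 1 and 0 counts in Control sh against 1580, 1334 and 1873 in VprBP sh. UPK1B had 500, 641 and 709 counts in Control sh against 0 in each VprBP sh sample. Fibroblast markers summed to 755 to 803 and 457 to 602 (4 of 6 in the table, 3 lower), endothelial markers to 697 to 723 and 29.03 to 40.6 (4 of 4 in the table, 3 lower), and leukocyte markers to 2.32 to 7.61 and 0 to 6.90 (1 of 4 in the table, not called). The labelled lineage was thus not borne out by its pigment markers in either group. The called basal squamous markers were all lower in VprBP sh, as were DSC3, DSG2, DSG3, PKP1 and PKP3. DSC2 and EVPL were higher, and DSP, JUP and PKP2 were not called. The part of cell identity in the desmosome results was not tested. In bulk RNA, fewer cells of a type and less RNA per cell cannot be told apart. Whether both groups came from the same cells was not tested either, so differences between the groups are not assigned to the knockdown.

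Desmosomal cadherins, the desmocollins and desmogleins, span the membrane and bind those of the next cell. Their cytoplasmic tails hold plakoglobin (JUP) and the plakophilins, which in turn recruit desmoplakin (DSP), the plakin that grips keratin filaments. In stratified epithelia the make-up of the desmosome changes with cell state: DSC2 and DSG2 are the broadly used cadherins, found in simple epithelia and heart, whereas DSC3, DSG3 and PKP1 are characteristic of stratified squamous epithelium.

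The desmosome genes moved in both directions in VprBP sh. DSC3, DSG2, DSG3, PKP1 and PKP3 were lower, DSC2 and EVPL were higher, and DSP, JUP and PKP2 were not called. A gene was called when its Benjamini-Hochberg adjusted p over all genes tested was below 0.05 and its change exceeded 2-fold. By this rule 7 of 10 members were called, beside 46.4% of all genes tested, 2 of them higher (24.5% of all genes) and 5 lower (22.0% of all genes). An adjusted p below 0.05 at any fold was reached by 10 of 10 members and by 76.4% of all genes, and the groups did not overlap for 10 of 10 members and for 79.5% of all genes, so neither count sets the members apart. Changes over 4-fold were seen in 5 of 10 members and 24.9% of all genes, and changes over 8-fold in 3 of 10 members and 17.0% of all genes. The median log2 fold change was -1.54 over the members and 0.08 over all genes tested. The plot of levels in each sample shows that the spread within a group was small beside most of these changes.

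**Figure D1:**
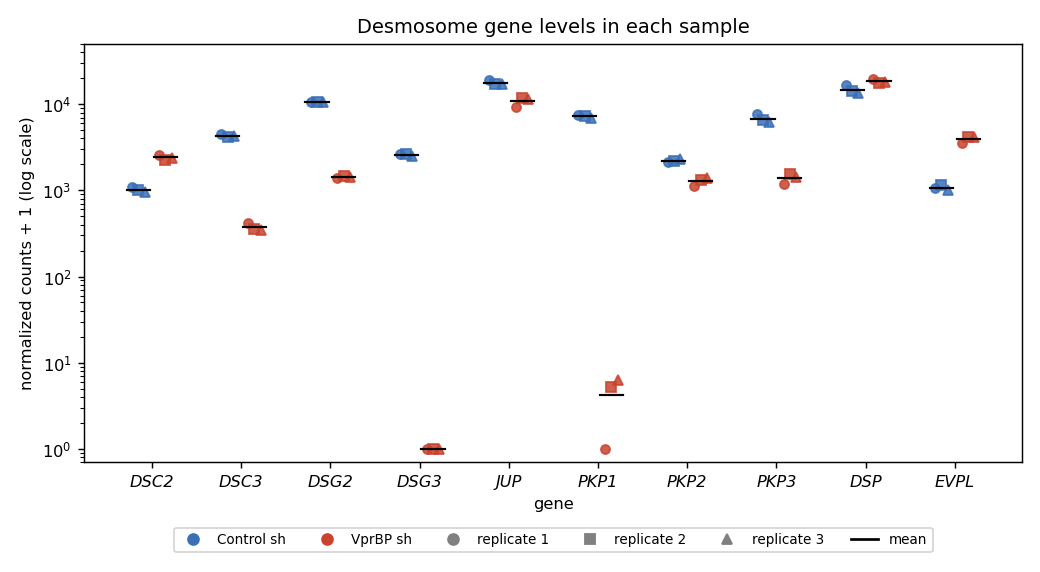
Normalized counts plus 1 (log scale) of the 10 desmosome genes in 3 Control sh samples (blue) and 3 VprBP sh samples (red), with replicates as circles, squares and triangles and group means as black bars. DSG3 lies at 0 counts in all 3 VprBP sh samples and PKP1 close to it, whereas DSP and JUP stay above 9000 in every sample.

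Of the desmocollins, DSC3 fell and DSC2 rose. DSC3 (ENSG00000134762.17, chr18:30989365-31042815, minus strand) had 4522, 4169 and 4252 in Control sh against 416, 352 and 348 in VprBP sh. It fell from 4314 ± 184 (SD, n = 3) to 372 ± 38.4 (SD, n = 3), 11.6-fold, a log2 fold change of -3.54 (SE 0.10, adjusted p = 3.27e-09, edgeR). DSC2 (ENSG00000134755.18, chr18:31058840-31102522, minus strand) had 1080.2, 1004 and 957 in Control sh against 2593, 2263 and 2374 in VprBP sh. It rose from 1014 ± 62.3 (SD, n = 3) to 2409.9 ± 168 (SD, n = 3), 2.38-fold, with a log2 fold change of 1.25 (SE 0.09, adjusted p = 1.15e-06, edgeR). All 3 VprBP sh samples lay above all 3 Control sh samples for DSC2 and below them for DSC3, although the genes are neighbours 16.0 kb apart on the same strand.

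Both desmogleins fell, one of them to the point of no detection. DSG3 (ENSG00000134757.5, chr18:31447741-31478702, plus strand), the main desmoglein of basal squamous cells, had 2609, 2619.8 and 2508 in Control sh against 0 counts in each VprBP sh sample. Set against a floor of 3 counts per library it was at least 882-fold lower in VprBP sh, a log2 bound of -9.79 (adjusted p = 4.07e-09, edgeR), and the floor covers counting error only. DSG2 (ENSG00000046604.14, chr18:31498177-31549008, plus strand) had 10469, 10501 and 10559.6 in Control sh against 1400.1, 1461 and 1443 in VprBP sh. It fell 7.32-fold, from 10509.8 ± 46.1 (SD, n = 3) to 1435 ± 31.3 (SD, n = 3), a log2 fold change of -2.87 (SE 0.08, adjusted p = 2.20e-09, edgeR). DSG2 varied least among replicates, with a coefficient of variation of 0.438% in Control sh and 2.18% in VprBP sh, so the drop in each sample was far beyond the spread within groups.

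The 4 cadherin genes sit in one cluster on chromosome 18, so the sequences before their starts are shown side by side as neighbours with unlike behaviour. Each is the 250 bases before a RefSeq transcript start on GRCh38.p14, printed 5′ to 3′ on the strand of the gene, and 7 of 10 members had an entry (PKP2, PKP3 and EVPL had none). Capitals mark matches on either strand to 6 short motifs: the CCAAT box, a TATA box (TATAAA), a GC box (GGGCGG), an E-box (CAGGTG), an AP-1 site (TGANTCA) and a GRHL site (AACCGGTT). Where RefSeq gave more than 1 start, the one shared with the canonical transcript of GENCODE 44 was used. The windows are chr18:31042743-31042992 (minus strand) for DSC3, chr18:31102422-31102671 (minus strand) for DSC2, chr18:31447491-31447740 (plus strand) for DSG3 and chr18:31497927-31498176 (plus strand) for DSG2.
DSC3: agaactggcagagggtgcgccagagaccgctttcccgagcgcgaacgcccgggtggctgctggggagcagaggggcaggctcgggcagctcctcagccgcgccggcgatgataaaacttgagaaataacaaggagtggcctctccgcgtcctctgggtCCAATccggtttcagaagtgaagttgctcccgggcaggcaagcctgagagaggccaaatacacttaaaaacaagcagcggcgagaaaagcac
DSC2: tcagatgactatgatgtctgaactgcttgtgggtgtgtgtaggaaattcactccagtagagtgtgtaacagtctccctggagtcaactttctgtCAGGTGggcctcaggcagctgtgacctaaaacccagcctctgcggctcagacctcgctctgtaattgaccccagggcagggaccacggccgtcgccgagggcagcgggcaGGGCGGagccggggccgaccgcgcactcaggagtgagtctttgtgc
DSG3: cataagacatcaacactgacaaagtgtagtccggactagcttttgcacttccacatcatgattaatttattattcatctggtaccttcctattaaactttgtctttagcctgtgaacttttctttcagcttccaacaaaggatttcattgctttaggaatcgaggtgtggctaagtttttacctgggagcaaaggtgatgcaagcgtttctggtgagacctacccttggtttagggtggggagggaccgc
DSG2: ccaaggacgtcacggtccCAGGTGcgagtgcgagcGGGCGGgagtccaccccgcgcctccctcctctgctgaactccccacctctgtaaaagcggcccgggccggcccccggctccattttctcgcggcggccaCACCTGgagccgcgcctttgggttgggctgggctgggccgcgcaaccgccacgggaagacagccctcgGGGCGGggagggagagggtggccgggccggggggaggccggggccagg

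The DSG3 window held none of the 6 motifs and was poor in CpG, with 4 CpG dinucleotides and 42.8% G and C against medians of 11 (quartiles 3 and 23) and 58% over 35116 promoters of the same length. The DSG2 window was at the other end, with 26 CpG dinucleotides, 75.2% G and C, 2 GC boxes and 2 E-boxes. DSC2 had 12 CpG dinucleotides, 1 GC box and 1 E-box, and DSC3 had 18 CpG dinucleotides and 1 CCAAT box. Over all 35116 promoters, 42.6% held a GC box, 32.0% a CCAAT box, 17.5% the E-box, 10.7% the TATA box, 6.57% the AP-1 site and 0.117% the GRHL site. A match is only a description of letters, and its bearing on the changes was not tested. DSC2 has another RefSeq start, whose window (chr18:31101261-31101510) held 19 CpG dinucleotides, 2 GC boxes and no E-box. Which start these cells used was not tested either.

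Read along the chromosome, the cluster from DSC3 to DSG2 covers 559.6 kb (chr18:30989365-31549008) and holds 6 genes of the table in the order DSC3, DSC2, DSC1, DSG1, DSG3 and DSG2. The 2 genes in the middle were close to silent. DSC1, a desmocollin of upper epidermal layers, had 3, 4 and 2 counts in Control sh against 12, 10 and 19 in VprBP sh, a rise with a log2 fold change of 1.97 (SE 0.45, adjusted p = 0.00269, edgeR) at a very low level. DSG1, its desmoglein counterpart, had 3, 1 and 6 counts and 0, 1 and 1 counts and was not tested. Direction was not uniform along the cluster: DSC3 was down, DSC2 and DSC1 up, DSG1 not tested, and DSG3 and DSG2 down. Beyond it, B4GALT6, which encodes a lactosylceramide synthase, fell (log2 fold change -1.89, adjusted p = 2.20e-04, edgeR), TRAPPC8, a vesicle tethering factor, was not called (0.55, adjusted p = 7.04e-04, edgeR), and CDH2, which encodes N-cadherin, fell from 65, 235 and 275 counts to 0 in each VprBP sh sample. DSG4, TTR and SLC25A52 were not among the rows analysed. Of the 8 genes of the region and its flanks that were tested, 7 were called, 2 higher and 5 lower, beside 46.4% of all genes tested. The count includes the 4 members. It also includes CDH2 (chr18:27932879-28177946), which lies much farther from the cluster than B4GALT6 and TRAPPC8.

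**Figure D2:**
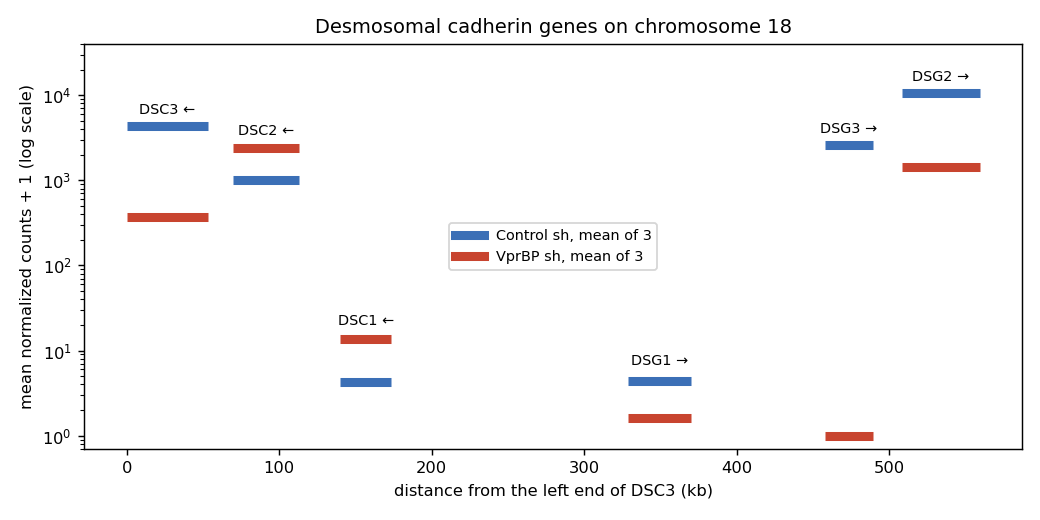
Mean normalized counts plus 1 (log scale) of the 6 genes of the desmosomal cadherin cluster against distance in kb from the left end of DSC3, as bars over the length of each gene, blue for Control sh and red for VprBP sh (mean of 3 samples each), with arrows for the strand. Red lies above blue for DSC2 and DSC1 and below it for DSC3, DSG1, DSG3 and DSG2.

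Among the armadillo proteins, PKP1 was all but lost. PKP1 (ENSG00000081277.13, chr1:201283452-201332993, plus strand), the plakophilin of suprabasal squamous cells, had 7583, 7249.6 and 6943 in Control sh against 0, 4.16 and 5.37 in VprBP sh, the latter from 0, 4 and 7 counts. It fell from 7258 ± 320 (SD, n = 3) to 3.17 ± 2.81 (SD, n = 3), a log2 fold change of -10.98 (SE 0.25, adjusted p = 1.22e-09, edgeR). So few counts leave the size of the drop loose: without VprBP sh replicate 3 the log2 fold change was -11.64, and without VprBP sh replicate 1, the sample with 0 counts, it was -10.51. The 250 bases before its RefSeq start (chr1:201283256-201283505, plus strand, GRCh38.p14) held 17 CpG dinucleotides and 1 GC box, in capitals. They are shown because PKP1 had the largest decrease among the members with counts left in VprBP sh.
PKP1: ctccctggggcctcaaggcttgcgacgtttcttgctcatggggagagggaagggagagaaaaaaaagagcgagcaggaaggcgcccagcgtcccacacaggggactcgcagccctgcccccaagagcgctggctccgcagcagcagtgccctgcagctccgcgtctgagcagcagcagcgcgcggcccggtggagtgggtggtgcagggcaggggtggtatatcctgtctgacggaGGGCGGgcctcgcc

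PKP3 (ENSG00000184363.10, chr11:392614-404908, plus strand), a plakophilin of most epithelia, had 7646, 6609 and 6177 in Control sh against 1189, 1552 and 1439.6 in VprBP sh. It fell 4.88-fold, from 6811 ± 755 (SD, n = 3) to 1394 ± 186 (SD, n = 3), a log2 fold change of -2.29 (SE 0.12, adjusted p = 1.63e-07, edgeR). PKP2 (ENSG00000057294.16, chr12:32790755-32896777, minus strand), the plakophilin shared with simple epithelia and heart, had 2126, 2197 and 2295 in Control sh against 1119, 1317 and 1384 in VprBP sh. Its samples did not overlap between groups, but at 1.73-fold it was not called (log2 fold change -0.79, SE 0.10, adjusted p = 4.58e-05, edgeR). The 3 plakophilins thus ranged from a difference below 2-fold to near absence, in the order PKP2, PKP3 and PKP1.

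JUP (ENSG00000173801.17, chr17:41754604-41786931, minus strand) encodes plakoglobin, which also works in adherens junctions. It had 19069, 17268 and 16937 in Control sh against 9216, 11754 and 11555 in VprBP sh, a log2 fold change of -0.71 (SE 0.11, adjusted p = 2.00e-04, edgeR) and 1.64-fold lower, which was not called. VprBP sh replicate 1 was the lowest sample, and every VprBP sh sample lay below every Control sh sample.

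Both plakins among the members had higher means in VprBP sh, and 1 of them was called. DSP (ENSG00000096696.15, chr6:7541617-7586714, plus strand), which encodes desmoplakin, the obligate link to keratin, had 16738, 14057 and 13582 in Control sh against 19386, 17803 and 18096 in VprBP sh. Its means were 14792 ± 1702 and 18428 ± 842 (SD, n = 3 each), a log2 fold change of 0.32 (SE 0.10, adjusted p = 0.0136, edgeR), 1.25-fold higher and not called. The threshold of 0.05 was itself missed with TMM factors (0.22 log2, adjusted p = 0.0763, edgeR), with DESeq2 (0.19 log2, adjusted p = 0.113), without Control sh replicate 2 or 3 (adjusted p = 0.0714 and 0.0753, edgeR), and with replicates 2 and 3 summed (adjusted p = 0.146, edgeR). EVPL (ENSG00000167880.8, chr17:76004502-76027306, minus strand), which encodes envoplakin, a plakin of desmosomes and the cornified envelope, had 1050.1, 1140.3 and 997 in Control sh against 3565, 4132 and 4203 in VprBP sh. It rose 3.73-fold, from 1063 ± 72.3 (SD, n = 3) to 3967 ± 350 (SD, n = 3), with a log2 fold change of 1.90 (SE 0.10, adjusted p = 1.11e-07, edgeR), the largest increase among the members.

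Overlapping genes may touch some of these values, and the sources used here do not say whether counting kept the strand. EVPL overlaps the opposite-strand genes TEN1-CDK3, with 137, 137 and 179 counts in Control sh against 324, 386 and 478 in VprBP sh, and CDK3, with 4, 26 and 17 counts and 64, 30 and 118 counts. These counts also were higher in VprBP sh, and their part in the EVPL value was not tested. DSG2 overlaps the opposite-strand DSG2-AS1, which had at most 6 counts in any sample. DSC2, DSP and PKP2 overlap genes that were not among the rows analysed (DSCAS, DSP-AS1, and for PKP2 a long noncoding RNA and the pseudogene RPL35AP27). The long noncoding RNA lies on the same strand as PKP2, so counting by strand would not separate them. DSC3, DSG3, JUP, PKP1 and PKP3 overlap none in GENCODE 44.

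**Figure D3:**
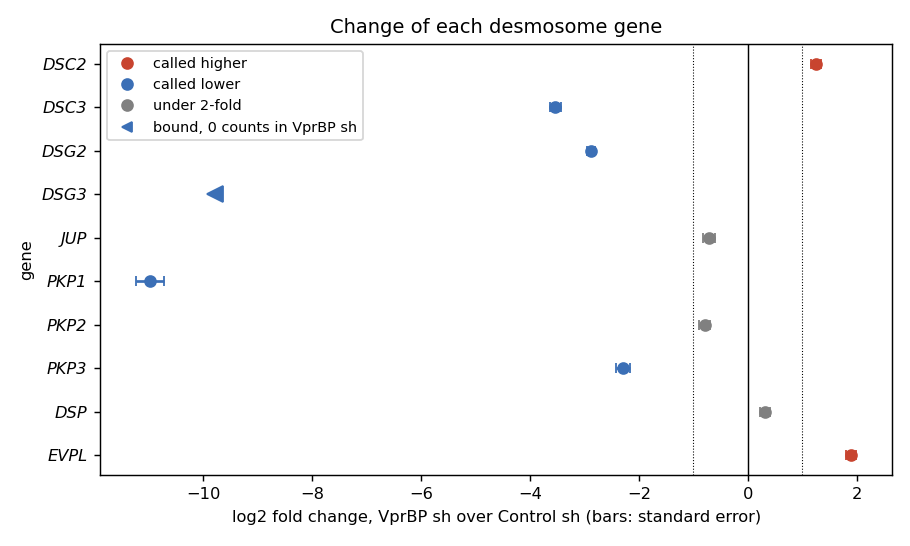
Log2 fold change (VprBP sh over Control sh) of each desmosome gene with its standard error, from the edgeR fit, with dotted lines at the 2-fold threshold and DSG3 drawn as a triangle at its bound. DSC2 (1.25) and EVPL (1.90) lie to the right of the band, DSP, JUP and PKP2 within it, and the other 5 to its left.

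To ask how the RNA make-up of these genes shifted, levels were compared between genes per kilobase of exon. The proteins of the junction were not measured here, so these levels and shares describe RNA alone. In Control sh the order of levels was JUP (3593 normalized counts per kb), PKP3 (1795), PKP1 (1169), DSG2 (1107), DSP (1086), DSC3 (560), DSG3 (462), PKP2 (214), EVPL (144) and DSC2 (81.1). The samples of DSP, from 997 to 1229, overlapped those of DSG2 and PKP1, so DSP is not ordered against either, and no other neighbours in this order overlapped. In VprBP sh the order was JUP (2194), DSP (1353), EVPL (539), PKP3 (367), DSC2 (193), DSG2 (151), PKP2 (124), DSC3 (48.4), PKP1 (0.511) and DSG3 (0), with overlap only between the last pair. JUP was first in both groups, while EVPL went from the ninth place to the third and DSC2 from the tenth to the fifth. With the length of the canonical transcript in place of all exons, the order changed among DSG2, DSP and PKP1 and between DSG3 and PKP2 in Control sh, and among DSC2, DSG2 and PKP2 in VprBP sh, where DSC2 took the seventh place.

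Summed per kilobase, the 4 cadherins went from 2211 ± 29.1 in Control sh down to 392 ± 14.8 in VprBP sh (SD, n = 3 each), 5.64-fold lower. The desmogleins were 10.4-fold lower (1570 ± 7.03 to 151 ± 3.30) and the desmocollins 2.66-fold lower (641 ± 28.1 to 241 ± 18.1). The plakophilins were 6.47-fold lower (3178 ± 242 to 491 ± 61.2), and the armadillo proteins with JUP included 2.52-fold lower (6771 ± 472 to 2685 ± 346). DSP and EVPL together gave the one higher sum, at 1230 ± 125 and 1892 ± 20.7, 1.54-fold higher. PPL, a plakin outside the members, is not in that sum. It went from 1004 per kb in Control sh to 0 in VprBP sh, so the sum does not give the direction of plakins as a class. No test was run on these sums, since they rest on the same values as the single genes.

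Within the families, the shares changed hands. DSC2 made up 12.6% ± 0.41 of desmocollin signal per kilobase in Control sh but 80.0% ± 0.74 in VprBP sh (SD, n = 3 each). DSG2 made up 70.5% ± 0.58 of desmoglein signal in Control sh, with DSG3 the rest, and 100% in VprBP sh. Of plakophilin signal, PKP1 went from 36.8% ± 1.19 to 0.0974% ± 0.087, PKP2 from 6.79% ± 0.76 to 25.2% ± 1.25 and PKP3 from 56.4% ± 1.92 to 74.7% ± 1.25. The plakophilin and desmoglein shares moved with the choice of length, the desmocollin shares hardly: by canonical transcript, PKP2 held 12.2% and 37.9%, PKP3 56.1% and 62.1%, and DSG2 of Control sh 80.0%. EVPL was 11.8% ± 1.33 of the summed DSP and EVPL signal in Control sh and 28.5% ± 2.69 in VprBP sh, with PPL left out.

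**Figure D4:**
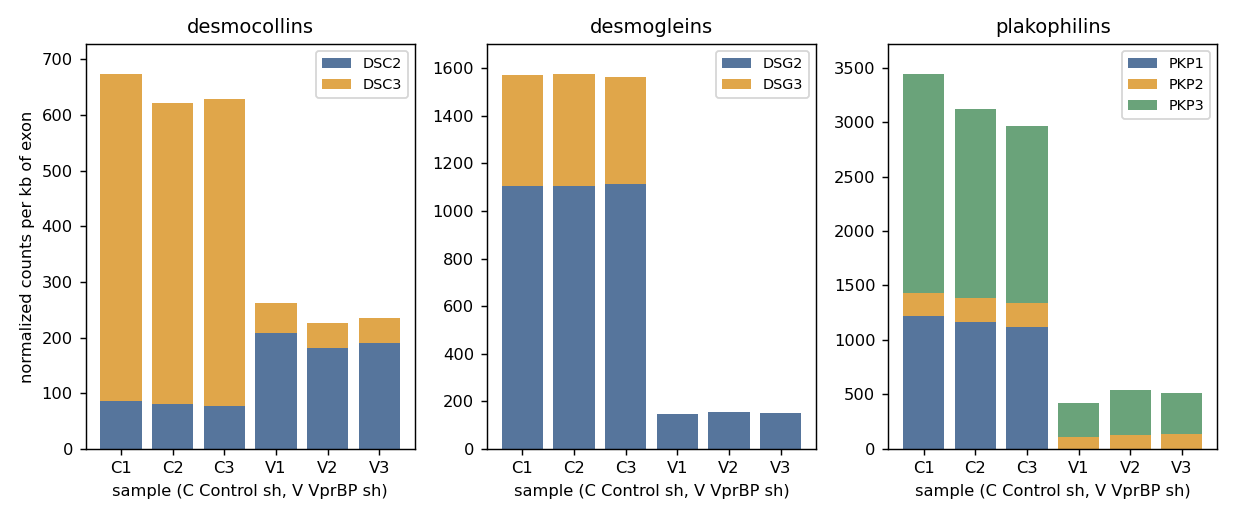
Normalized counts per kb of exon of the desmocollins, desmogleins and plakophilins as stacked bars, 1 bar per sample (C1 to C3 Control sh, V1 to V3 VprBP sh) and 1 colour per gene. The VprBP sh bars are lower in all 3 panels, the desmocollin bars change from mostly DSC3 to mostly DSC2, and DSG3 and PKP1 are no longer visible.

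Ratios of 2 genes within a sample do not depend on scaling between samples. The log2 ratio of DSC2 to DSC3 counts was -2.09 ± 0.05 in Control sh but 2.70 ± 0.07 in VprBP sh (SD, n = 3 each), a difference of 4.79, or 27.6-fold. The ratio of PKP2 to PKP3 moved by 1.49, from -1.62 ± 0.21 to -0.13 ± 0.10, a relative gain of PKP2 of 2.82-fold although the means of both were lower. The ratio of JUP to DSP moved by -1.04, from 0.27 ± 0.07 to -0.77 ± 0.26, which is 2.06-fold. For pairs with a gene near 0 the shift depended on the amount added to each count: with 0.5 added it was 9.52 for DSG2 to DSG3, 10.72 for PKP2 to PKP1 and 9.23 for PKP3 to PKP1, and with 5 added it was 6.20, 9.06 and 7.57. Without VprBP sh replicate 1, where PKP1 had 0 counts, the shifts of PKP2 and PKP3 to PKP1 were 9.74 and 8.27. In all 6 ratios the groups did not overlap, and the exact two-sided permutation test gave p = 0.1 for each (0.1 after Benjamini-Hochberg adjustment over 6 ratios), the smallest that 3 samples against 3 allow.

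Genes with a profile most like the uncalled pair DSP and JUP were looked up by Pearson's r of log2(normalized count + 1) over the 6 samples, as a description. For DSP they were SNAPC4 (0.998), GOLGB1 (0.996) and RBL2 (0.994), and 974 genes had an r above 0.9. For JUP they were SBNO2, HSF1 (0.9997 each) and RELB (0.9996), and 3974 genes had an r above 0.9. An r over 6 samples in 2 groups reflects the gap between the groups as well as the spread within them and takes no account of size, as RELB differed by -1.80 and JUP by -0.71 (log2 fold changes).

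Other genes that associate with desmosomes moved both ways as well. Of 9 listed, 7 were tested and 4 called, beside 46.4% of all genes tested, 1 higher and 3 lower (median -0.55 on the log2 scale). PPL, which encodes periplakin, the partner of envoplakin, had 8517, 7508 and 7172 in Control sh against 0 counts in each VprBP sh sample, at least 2646-fold lower (adjusted p = 3.52e-09, edgeR). EVPL and PPL, whose products pair with each other, went in opposite directions. PERP, a tetraspan protein needed for desmosome adhesion in skin, fell 2.06-fold (-1.04, SE 0.08, adjusted p = 2.18e-06, edgeR), but was not called by library size alone (-0.83). CDSN, the corneodesmosin of cornified layers, fell from 14, 16 and 33 counts to 0, and PKP4 (0.61), KAZN (-0.55) and PNN (0.52) were not called. DSG4 was not among the rows analysed and DSG1 was below the filter.

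Genes of the adherens junction, which shares JUP with the desmosome, also moved both ways. Of 16 genes tested 8 were called, beside 46.4% of all genes tested, so this count does not set the list apart. Of the 8 called, 1 was higher (24.5% of all genes) and 7 lower (22.0% of all genes), and the list median was -0.71. NECTIN4 rose 3.89-fold (log2 fold change 1.96, SE 0.14, adjusted p = 8.74e-07, edgeR), whereas NECTIN3, CDH2 and PDLIM4, an actin-binding LIM protein, had 0 counts in each VprBP sh sample, at least 57.9-fold, 67.5-fold and 470-fold lower. E-cadherin (CDH1, -0.63), β-catenin (CTNNB1, 0.34) and p120 (CTNND1, -0.80) were not called, while P-cadherin (CDH3, -3.22, adjusted p = 1.45e-06, edgeR) and α-catenin (CTNNA1, -2.64, adjusted p = 4.27e-09, edgeR) fell (log2 fold changes; CDH1, CDH3 and the catenins were named after their values were seen).

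Hemidesmosome genes, which anchor keratin to the basement membrane, were called in 6 of 8 tested, beside 46.4% of all genes tested. All 6 were lower (22.0% of all genes, list median -5.22), and DST (-0.20) and CD151 (-0.40) were not called. COL17A1, collagen XVII, had 29204, 25132 and 28462 counts in Control sh against 1, 2 and 3 counts in VprBP sh. LAMB3, a laminin chain of the basement membrane, had a log2 fold change of -10.34 (adjusted p = 3.34e-08, edgeR), and from -11.21 to -9.85 with 1 replicate left out.

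Keratins, the filaments that desmosomes hold, were called in 10 of 14 tested, beside 46.4% of all genes tested, 3 higher and 7 lower (median -2.29). KRT14, KRT6A and KRT13, keratins of stratified epithelia, fell from 79034 ± 5745, 29467 ± 763 and 4346 ± 1019.5 (SD, n = 3) to 4.67 ± 5.66, 5.78 ± 1.86 and 6.18 ± 3.54 (SD, n = 3). KRT8 and KRT19, keratins of simple epithelia, rose 2.05-fold and 2.02-fold (log2 fold changes 1.04 and 1.01, adjusted p = 1.36e-05 and 7.55e-04, edgeR). Both were just past the threshold and were not called with TMM factors (0.94 and 0.91) or DESeq2 (0.92 and 0.89). Nor were they called without Control sh replicate 1 or VprBP sh replicate 2 or 3 (0.95, 0.99 and 0.99 for KRT8, 0.99, 0.88 and 0.89 for KRT19). KRT23 rose with 1.77 (adjusted p = 0.00313, edgeR), and with 1.385 to 2.55 when 1 replicate was left out. Of the other keratins of simple epithelia, KRT18 (0.48, adjusted p = 8.04e-04, edgeR) and KRT7 (-0.70, adjusted p = 4.27e-04, edgeR), named after their values were seen, were not called and differed in sign. The log2 fold change of KRT14, -14.18, was -15.74 without VprBP sh replicate 1 and -13.55 without VprBP sh replicate 3. Keratin genes have close paralogs and pseudogenes, so reads may be split among them. Of 7 other intermediate filament genes tested 5 were called, beside 46.4% of all genes tested, 3 higher and 2 lower (median 0.46). SYNM (1.92) and LMNB1 (1.45) were among those that rose. NES, nestin, was among those that fell (-5.05, and from -5.81 to -4.67 with 1 replicate left out).

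Cornified envelope genes, to which EVPL also belongs by function, were called in 9 of 10 tested, beside 46.4% of all genes tested. Of these 9, 1 was higher and 8 lower. The list median was -4.48, or -3.22 with genes at no more than 3 counts in VprBP sh set to their bound. CNFN, cornifelin, rose with EVPL (log2 fold change 2.59, adjusted p = 2.01e-04, edgeR). SPRR2A fell from 160.3 ± 76.3 (SD, n = 3) to 0 in each sample, SPRR1B to 1 count in each sample, and CSTA, cystatin A, 35.7-fold. The SPRR genes are near copies of each other, and their counts are uncertain for the same reason as those of keratins.

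Transcription factors of epithelial and mesenchymal state were called in 10 of 18 tested, 5 higher and 5 lower (median -0.21). GRHL1, a grainyhead factor known to bind desmosomal cadherin genes, had 282, 188 and 211 counts in Control sh against 1810, 2531 and 3406 in VprBP sh. It was 9.97-fold higher in VprBP sh (adjusted p = 3.26e-07, edgeR). ZNF750 and GRHL3, factors of epidermal differentiation, rose 4.96-fold and 3.25-fold. TP63, the master factor of basal squamous cells, fell from 8715, 7670 and 8806 counts to 9, 8 and 13 counts, KLF5 fell 4.70-fold, and SNAI2, a repressor of epithelial adhesion genes, fell from 1879, 1392 and 1630 counts to 0 in each sample. Counts in these lists are to be read beside the 46.4% of all genes that were called, and the lists were put together with results of these data known.

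**Figure D5:**
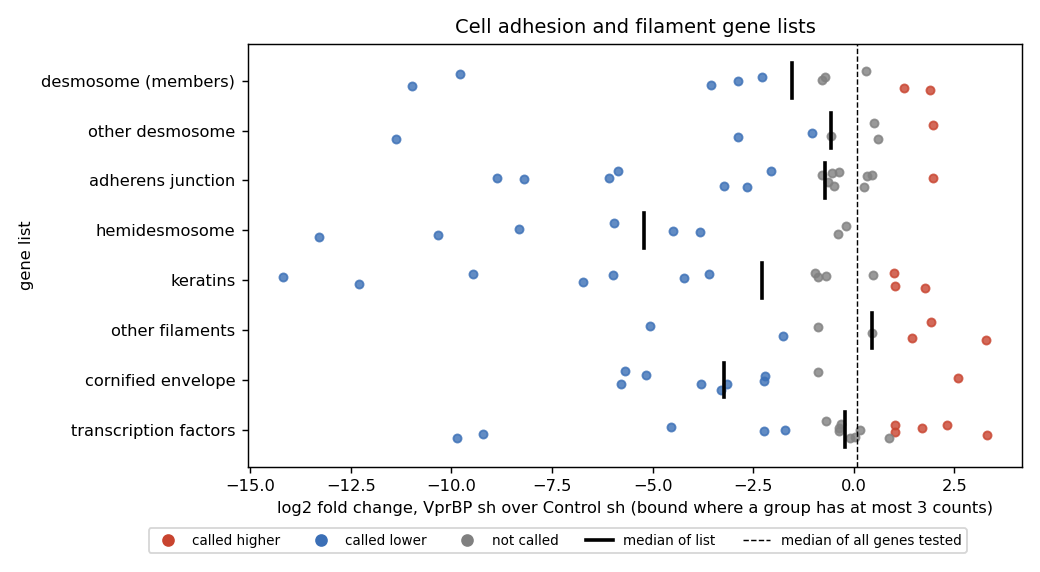
Log2 fold change (VprBP sh over Control sh) of each tested gene of the desmosome and of 7 related lists, 1 row per list, coloured by call, with a bar at the median of the list and a dashed line at the median of all genes tested (0.08). Genes of the desmosome row spread from -10.98 to 1.90, and those of the hemidesmosome row lie below 0.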

How the data were processed

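RNA-seq of 3 Control sh and 3 VprBP sh samples was analysed. The authors aligned single-end reads to hg38 with STAR and a GENCODE annotation, quantified genes in Partek Flow and deposited estimated counts (59.4% of values exactly whole, with a tolerance of 0), neither normalized nor pooled, for genes with a sum of at least 10. The design had assumed counts, so values were rounded to whole counts. Depth ran from 18195949 to 26883948 per sample, and the floor of 3 counts covers counting error only.

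Groups and replicate numbers came from the sample titles. All 6 samples entered edgeR 4.0.16 (R 4.3.3) with upper quartile factors (quantile 0.75), filterByExpr (minimum count 10) and the quasi-likelihood test, in place of the Gene Specific Algorithm of the study, which was not run. P-values were adjusted by Benjamini-Hochberg over 16756 genes, and a call needed an adjusted p under 0.05 with a change beyond 2-fold. Standard errors are the absolute log2 fold change over the root of F. Ratios were tested by exact permutation in Python 3.11.15 with scipy 1.17.1. Exon lengths, overlaps and canonical starts came from GENCODE 44, and promoters from RefSeq (GRCh38.p14).

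Named genes are the members, DCAF1, up to 3 higher and 3 lower called genes per list with at least 100 normalized counts, the chromosome 18 cluster, and the 3 genes most like DSP and JUP. One gene that this rule names is not reported here. Others are named after their values were seen. The members and lists were chosen with earlier results of these data known.

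Alternatives were TMM factors, library size alone, DESeq2 1.42.0, no filter, a minimum of 10 counts per sample, the replicate number as a block, each replicate left out, replicates 2 and 3 summed, a test against 2-fold, 5 in place of 0.5 added in ratios and, chosen after seeing the data, canonical transcript length. On simulated counts of 16408 genes for this comparison, with 200 changed by 2 on the log2 scale, edgeR recovered 97% with 2 false calls and DESeq2 96% with 0. The simulation gave every gene the same dispersion and drew replicates independently. In the data 46.4% of genes tested were called and replicates 2 and 3 resembled each other, so these rates do not carry over to the calls above.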

Additional observations from a re-analysis of the deposited data

How the results depend on the processing

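Of the values under alternatives, 846 kept their direction and call or, for counts of genes, stayed within 1.5 times, 16 moved beyond that or beyond 1 SD and 17 lost a call (KRT19 in 9, KRT8 in 6, PERP in 2), and none reversed. Each member kept its direction wherever it was fitted, and 7 stayed called except with 10 counts demanded in every sample. That filter removes DSG3 and PKP1 by construction, which left 5 members called, 3 of them lower, and a member median of -0.75. It also left 4690 genes called in all, 7 transcription factors, 5 hemidesmosome genes, 1 other desmosome gene, 4 adherens junction genes, 6 keratins, 2 other filament genes, 3 cornified envelope genes and 4 genes of the cadherin region. Scaling by library size alone moved the member median to -1.33, as the median of all genes rose from 0.08 to 0.29 (TMM -0.01, DESeq2 -0.04), and DCAF1 to -0.37 (adjusted p = 0.0851, edgeR; 0.0839 with replicates 2 and 3 summed). The split of all calls was 4097 higher and 3681 lower with upper quartile factors, 4899 and 3248 by library size, 3747 and 3938 with TMM and 3634 and 3987 with DESeq2. Leaving out 1 replicate kept the member median between -1.60 and -1.45. Same-numbered replicates did not deviate together (correlations of -0.145, -0.0298 and -0.106), so the numbers are not taken to pair samples. With a replicate block, 7 members and 7686 genes were called, DSP was at 0.32 and JUP at -0.72, no call of a member changed, and KRT19 was not called (0.97). Canonical lengths moved PKP1 to 31.7%, PKP2 to 12.2% and 37.9%, PKP3 in VprBP sh to 62.1%, and DSG2 and DSG3 in Control sh to 80.0% and 20.0%. At 0 to 7 counts per library, as for DSG3 and PKP1 in VprBP sh, depth limits how well the size of a fold is known.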
